A study of Homo sapiens with 6 samples.

Results

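The KLF genes encode Krüppel-like factors, and 10 of them, KLF2, KLF4, KLF5, KLF6, KLF7, KLF9, KLF10, KLF11, KLF12 and KLF13, were followed across 3 cultures of SK-N-AS, an established line grown from a human neuroblastoma. Members were chosen by gene symbol: every probe set of the expression array that carries 1 of these 10 symbols was taken, 36 of 54675 in all. The leading probe set of a gene is its brightest one on average over the 6 arrays. These 10 are among 19775 genes that the array names. There were 2 arrays per culture. Monolayer cells grew attached and had no pretreatment. Sphere cells grew as spheroids in medium without serum and had no pretreatment either. iCSC cells grew as the same kind of spheroid, after 5 days in monolayer with 2.5 uM of 5AdC, short for 5-aza-2'-deoxycytidine, which blocks DNA methyltransferases. Medium and attachment therefore changed together between Monolayer and the spheroid cultures, and no Monolayer sample with 5AdC was analysed here. The series set these cultures side by side to examine their stem cell phenotype.

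Krüppel-like factors bind GC-rich and CACCC-type DNA boxes through 3 zinc fingers at the carboxyl end of the protein, and differ in the rest. KLF2, KLF4, KLF5, KLF6 and KLF7 mostly activate transcription. KLF9, KLF10, KLF11 and KLF13 recruit the SIN3A corepressor, and KLF12 recruits the corepressor CtBP. KLF4 is known as a reprogramming factor, KLF7 for its part in the growth of sensory and sympathetic axons, and KLF9 for limiting axon growth and following steroid and thyroid hormones.

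Levels are log2 GCRMA signals, and a value of log2 5 was taken as the limit of background. Levels of different probe sets are not comparable with each other, so each gene is read across cultures only. Differences were tested with limma over all 10459 genes that reached the limit on at least 2 of the 6 arrays, and were called at a Benjamini-Hochberg adjusted p under 0.05. Of the 10 members 9 entered the test, and 23 of their 36 probe sets reached the limit on at least 2 arrays. KLF2 did not enter. Whether both arrays of a condition stem from independent dishes is not stated, and p-values then rest on array-to-array spread alone, which may be technical. In a bulk culture, fewer cells of a kind and less RNA per cell cannot be told apart. Array medians lay between 2.78 and 2.83. The 3' minus 5' signal of the ACTB control probes, which rises as RNA degrades, was 1.16 to 1.25 on the 4 Monolayer and Sphere arrays and 1.40 to 1.47 on the iCSC arrays, and its part in the iCSC values was not tested. Of 11 neuroblast markers on the array, 6 lay under the limit on both Monolayer arrays and 1 on both Sphere arrays, with DBH, an enzyme of noradrenaline synthesis, under it on all 6.

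The KLF family split between the cultures. KLF4, KLF5 and KLF6 were highest in Monolayer, KLF7, KLF9, KLF11 and KLF12 were lowest there, KLF10 held one level, and KLF13 moved by less than 1 log2 unit. Sphere against Monolayer called 8 of the 9 tested members, 5 higher and 3 lower, where 59.0% of all tested genes were called, 30.0% higher and 29.1% lower. iCSC against Sphere called 5, 3 higher and 2 lower, against 38.5% of all genes, 19.3% and 19.2%. iCSC against Monolayer called 7, 4 higher and 3 lower, against 55.6%, 29.0% and 26.6%. The arrays of the compared cultures did not overlap for 8, 6 and 8 of the 9 members, against 84.2%, 69.4% and 79.8% of all tested genes. The median fold change of the 9 was 0.41, -0.06 and 0.01 (log2) in these comparisons, against 0.01, 0.01 and 0.02 over all tested genes. KLF5 entered through Monolayer alone and KLF9 through the spheroid cultures alone, so the filter set the direction of both against Monolayer, and these counts support nothing about the family. The comparisons share arrays and are not independent of each other.

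**Figure D1:**
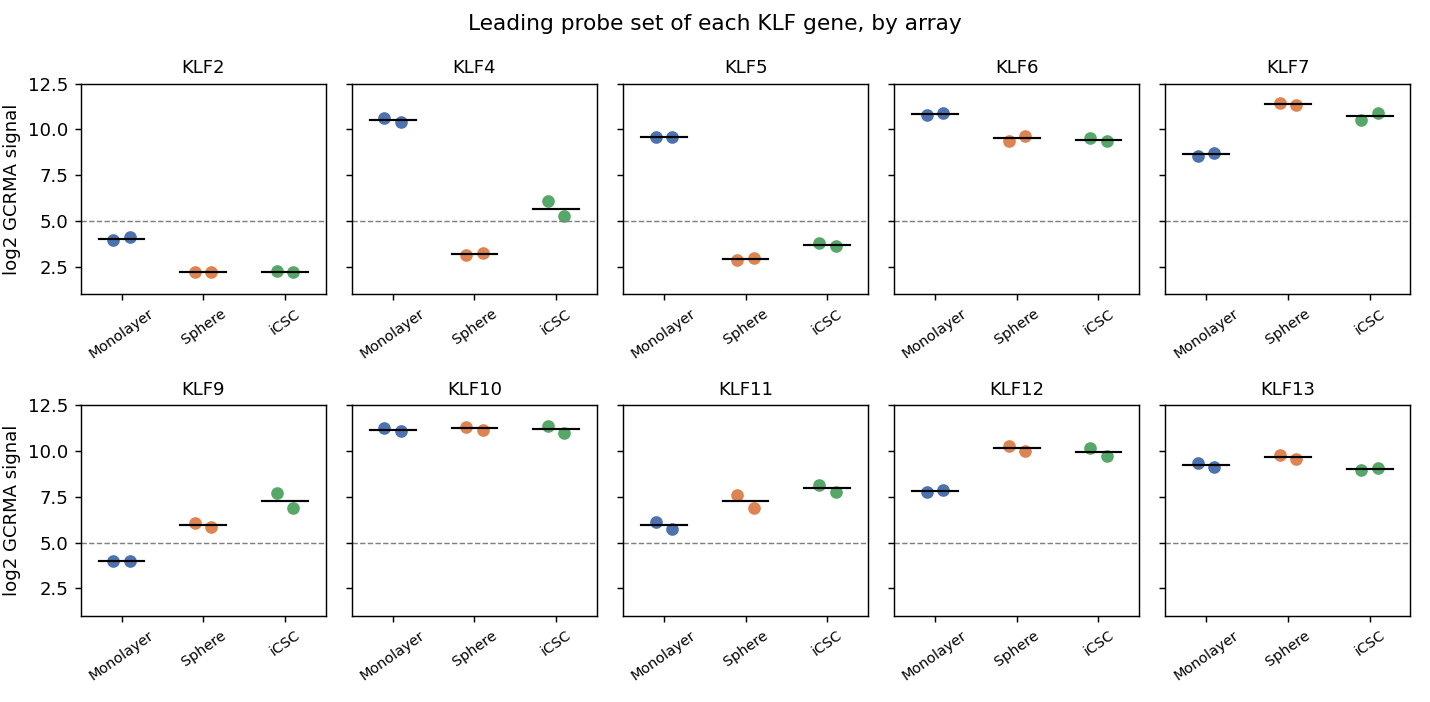
Log2 GCRMA signal (vertical axis) of the leading probe set of each of the 10 KLF genes on the 2 Monolayer, 2 Sphere and 2 iCSC arrays; points are arrays, bars are culture means, and the dashed line marks the limit at log2 5. KLF4 falls from 10.61 and 10.41 in Monolayer to 3.14 and 3.24 in Sphere, KLF7 rises from 8.52 and 8.74 to 11.42 and 11.34, and KLF2 stays under the limit throughout.

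The stretches upstream of 3 members are shown because each of these genes has a single start site in the RefSeq table used and changed between Monolayer and both spheroid cultures: KLF4 and KLF6 were lower in spheroids and KLF9 was higher. Each is the 250 bases before the start, from assembly GRCh38.p14, 5′ to 3′ on the strand of the gene. Capitals mark GGGCGG and CACCC boxes on either strand, where CCGCCC and GGGTG are the same boxes read from the other strand, and boxes can overlap.
KLF4, chr9:107489770-107490019, minus strand: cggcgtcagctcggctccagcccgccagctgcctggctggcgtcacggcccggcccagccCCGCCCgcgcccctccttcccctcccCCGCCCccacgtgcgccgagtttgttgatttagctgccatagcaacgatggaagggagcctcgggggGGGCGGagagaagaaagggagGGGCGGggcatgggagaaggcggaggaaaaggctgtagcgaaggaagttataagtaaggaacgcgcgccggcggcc
KLF6, chr10:3785210-3785459, minus strand: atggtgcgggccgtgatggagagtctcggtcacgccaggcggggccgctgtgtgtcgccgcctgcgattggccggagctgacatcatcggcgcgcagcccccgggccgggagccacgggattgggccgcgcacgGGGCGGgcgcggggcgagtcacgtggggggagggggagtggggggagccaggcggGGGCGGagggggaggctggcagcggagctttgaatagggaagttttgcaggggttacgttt
KLF9, chr9:70414658-70414907, minus strand: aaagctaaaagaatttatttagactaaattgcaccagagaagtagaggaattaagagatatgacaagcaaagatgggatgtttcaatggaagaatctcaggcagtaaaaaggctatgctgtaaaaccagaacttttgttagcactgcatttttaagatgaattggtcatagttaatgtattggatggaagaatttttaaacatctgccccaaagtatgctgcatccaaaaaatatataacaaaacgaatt
The KLF4 stretch holds 4 GGGCGG boxes, the KLF6 stretch 2 and the KLF9 stretch 0, and none of the 3 holds CACCC. Among 35116 promoter stretches of this length, 42.6% hold GGGCGG and 54.7% hold CACCC. CpG sites, where DNA methylation occurs, number 25 upstream of KLF4, 28 upstream of KLF6 and 1 upstream of KLF9, against a median of 11 over all stretches. Methylation was not measured in these samples. Of the 10 members, 9 had at least 1 entry. KLF2, with 41 CpG sites, holds the MEF2 box through which MEF2 factors act on it, a box found in 0.515% of all stretches, and the most upstream of 4 KLF7 starts holds a CArG box, the site of the serum response factor SRF, found in 1.16%. These matches describe letters only.

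Among the activating members, KLF4 and KLF5 showed the widest ranges of culture means, 7.32 and 6.65 (log2). KLF4, a factor of pluripotent and epithelial cells, read 10.61 and 10.41 in Monolayer, 3.14 and 3.24 in Sphere, and 6.06 and 5.24 in iCSC. The 3 cultures did not overlap, with iCSC between the other two and both Sphere arrays under the limit. KLF4 was thus at least 45.6-fold lower in Sphere than in Monolayer (limma, adjusted p = 3.64e-06), and iCSC lay below Monolayer by a log2 change of -4.86 ± 0.28 (SE; adjusted p = 2.77e-05). The second KLF4 probe set read 7.004 and 6.62 in Monolayer, 3.08 and 3.11 in Sphere, and 3.10 and 3.07 in iCSC. It entered the test through Monolayer alone, so the filter set its direction against Monolayer. Under the limit on all 4 spheroid arrays, it cannot show whether iCSC and Sphere differed. The leading probe set was at least 1.57-fold above Sphere in iCSC (limma, adjusted p = 0.000890), so this difference rests on 1 probe set. The p of the leading one spanned 0.000369 to 0.111 over 17 alternatives and missed the threshold once low values were raised to 5 (0.111, difference 0.65). Averaging both probe sets gave a difference of 1.23.

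KLF5, an activator in proliferating epithelium and smooth muscle, read 9.58 and 9.57 in Monolayer, 2.88 and 2.97 in Sphere, and 3.79 and 3.60 in iCSC. All 4 spheroid arrays were under the limit, and KLF5 was at least 23.9-fold lower in Sphere (limma, adjusted p = 8.38e-07) and in iCSC (adjusted p = 1.61e-06). Its other probe set read 8.82 and 9.15 in Monolayer, 3.11 and 3.24 in Sphere, and 4.07 and 3.60 in iCSC. Both probe sets entered the test through Monolayer alone, so the filter set their direction against Monolayer. The leading probe set was called higher in iCSC than in Sphere, but both cultures lay under the limit and no fold is given. Genes called lower with both Monolayer arrays at or above the limit and both arrays of the other culture under it made up 3.46% of all tested genes in Sphere, with KLF4 and KLF5 among them, and 2.78% in iCSC, with KLF5 among them. Genes that went the same way from Sphere to iCSC made up 2.94%, and no member was one.

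KLF6, a broadly expressed factor induced by injury and serum, fell less. Monolayer read 10.79 and 10.90, Sphere 9.38 and 9.65, and iCSC 9.51 and 9.34. Both spheroid cultures lay below Monolayer without overlap and overlapped each other. The log2 change was -1.33 ± 0.13 in Sphere (limma, adjusted p = 0.000230) and -1.42 ± 0.13 in iCSC (adjusted p = 0.000220). iCSC differed from Sphere by -0.09 with a 95% interval of -0.40 to 0.23. All 4 KLF6 probe sets above the limit were called lower in both comparisons with Monolayer, as were 28.9% and 26.6% of all tested probe sets, by log2 changes from -1.33 to -2.05 in Sphere, and the fifth stayed under the limit on all arrays. KLF2, the factor of quiescent endothelium and naive lymphocytes, was under the limit everywhere: its leading probe set read 3.94 and 4.10 in Monolayer, 2.20 and 2.23 in Sphere, and 2.26 and 2.20 in iCSC. Monolayer was the highest of the 3, no fold is given, and its other probe set read 2.22 to 2.26 on every array.

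KLF7 went the other way from these activators. It read 8.52 and 8.74 in Monolayer, 11.42 and 11.34 in Sphere, and 10.54 and 10.89 in iCSC, so that no 2 cultures overlapped and Sphere was highest. The gain was 2.75 ± 0.15 (log2, SE) in Sphere (limma, adjusted p = 1.34e-05) and 2.09 ± 0.15 in iCSC (adjusted p = 6.41e-05). All 5 KLF7 probe sets were called higher in both spheroid cultures, where 28.1% and 27.7% of all 18059 tested probe sets were, and 4 of them by 2.59 to 3.19 in Sphere and 1.86 to 2.11 in iCSC. The fifth, under the limit on both Monolayer arrays at 3.81 and 4.14, entered through the spheroid cultures alone, which set its direction, and read 7.23 and 7.05 in Sphere and 6.09 and 6.56 in iCSC. All 5 were also called lower in iCSC than in Sphere (17.1% of all probe sets), with changes from -0.67 to -1.07. For the leading probe set this change was -0.67 ± 0.15 (adjusted p = 0.0127; 0.00498 to 0.0902 over 18 alternatives), and its call was lost without Sphere replicate 1 (0.0820), without Sphere replicate 2 (0.0615) and without variance moderation (0.0902).

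**Figure D2:**
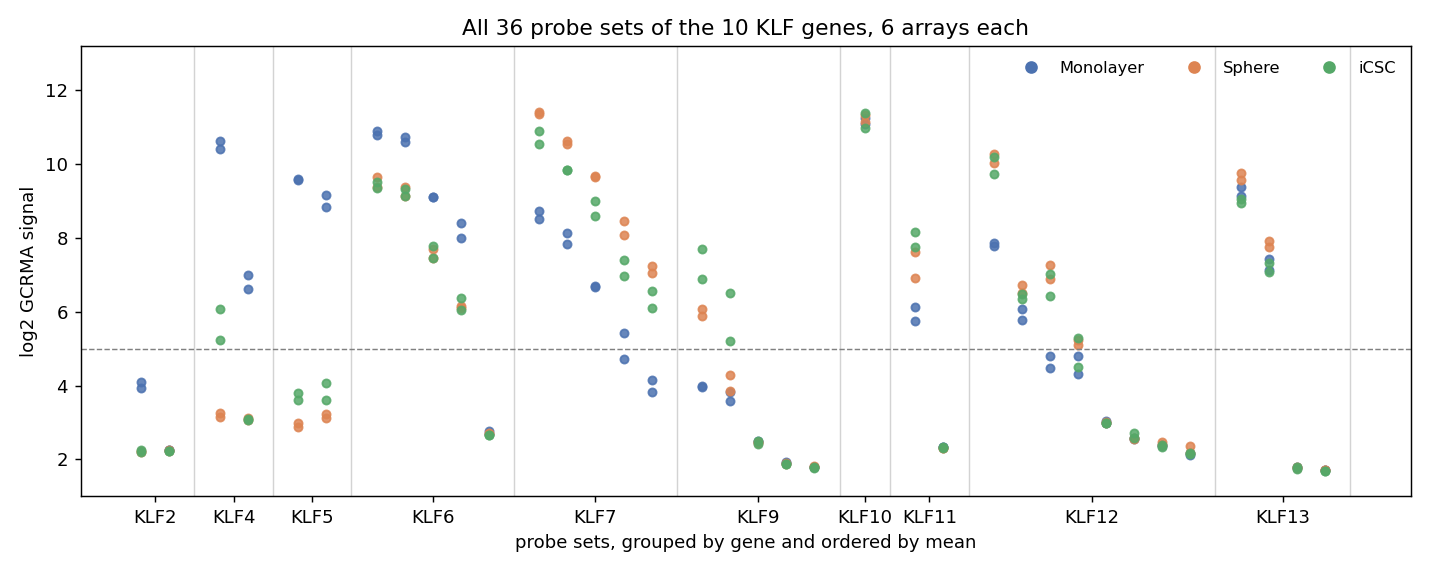
Log2 GCRMA signal (vertical axis) on each of the 6 arrays for all 36 probe sets of the 10 KLF genes, ordered within a gene by mean; colours mark the cultures and the dashed line the limit at log2 5. All 5 KLF7 probe sets have Sphere above Monolayer, the 4 measured KLF6 probe sets have Monolayer on top, and the second KLF4 probe set lies under the limit on all 4 spheroid arrays.

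Among the members that recruit SIN3A, KLF9 and KLF11 rose. KLF9 read 3.98 and 3.97 in Monolayer, 6.07 and 5.88 in Sphere, and 7.70 and 6.87 in iCSC. The cultures did not overlap, with both Monolayer arrays under the limit and iCSC on top. KLF9 was at least 1.97-fold higher in Sphere (limma, adjusted p = 0.00120) and at least 4.88-fold higher in iCSC (adjusted p = 0.000162) than in Monolayer. The Sphere difference was 2.001 (SE 0.28) on the deposited scale, 0.98 with low values raised to 5 and 1.18 with both passing probe sets averaged. A second KLF9 probe set read 3.83 and 3.58 in Monolayer, 4.28 and 3.85 in Sphere and 6.52 and 5.21 in iCSC, above the limit in iCSC alone. It entered the test through iCSC alone, so the direction of its calls there was set by the filter and supports nothing about KLF9. The remaining 3 KLF9 probe sets stayed under the limit.

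From Sphere to iCSC the leading KLF9 probe set gained 1.31 ± 0.28 (log2, SE; limma, adjusted p = 0.0126; 0.00189 to 0.0954 over 16 alternatives). This call was lost without Sphere replicate 1 (0.0543), without Sphere replicate 2 (0.0765), without variance moderation (0.0954) and with chromosome medians removed (0.0553, gain 0.88), the last an alternative chosen after seeing the data. The 417 tested genes of chromosome 9, which carries KLF9 and KLF4, had a median change of 0.45 between these cultures.

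KLF11, induced by TGF-beta and a regulator of insulin and monoamine oxidase genes, read 6.14 and 5.76 in Monolayer, 7.62 and 6.92 in Sphere, and 8.17 and 7.75 in iCSC. The spheroid arrays all stood above the Monolayer arrays. KLF11 rose by 2.01 ± 0.29 (log2, SE) in iCSC (limma, adjusted p = 0.00146) and by 1.32 ± 0.29 in Sphere (adjusted p = 0.00785; 0.00109 to 0.0714 over 18 alternatives). The Sphere call was lost without Monolayer replicate 2 (0.0644) and without variance moderation (0.0714). iCSC and Sphere did not overlap, but their difference of 0.69, with a 95% interval of -0.01 to 1.39, did not pass (adjusted p = 0.106). The other KLF11 probe set lay under the limit on all arrays.

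KLF10, the closest relative of KLF11 and an early target of TGF-beta, was measured by a single probe set and showed no difference that passed. It read 11.26 and 11.08 in Monolayer, 11.34 and 11.14 in Sphere, and 11.38 and 10.99 in iCSC, and all 3 cultures overlapped. Sphere differed from Monolayer by 0.07 (95% interval -0.29 to 0.44), iCSC from Sphere by -0.06 (-0.42 to 0.31) and iCSC from Monolayer by 0.01 (-0.35 to 0.38), so changes of more than 0.44 log2 units lie outside all 3 intervals. Thus KLF11 rose where KLF10 gave no call, a contrast that was not itself tested.

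KLF13, a factor known from T cells and heart, moved little. It read 9.38 and 9.12 in Monolayer, 9.76 and 9.56 in Sphere, and 8.95 and 9.06 in iCSC, with Sphere above both other cultures. The change from Sphere to iCSC was -0.65 ± 0.14 (log2, SE; limma, adjusted p = 0.0120; 0.00102 to 0.0804 over 17 alternatives), lost without Sphere replicate 1 (0.0804) and without variance moderation (0.0683). The rise from Monolayer to Sphere, 0.41 ± 0.14 (limma, adjusted p = 0.0417; 0.00160 to 0.228 over 17 alternatives), missed the threshold in 6 of them: when either Monolayer array was left out (0.0565 for replicate 1, 0.228 for replicate 2), when either Sphere array was (0.208 and 0.0600), without the filter (0.0747) and without variance moderation (0.104). KLF13 lies on chromosome 15, whose 347 tested genes had a median of -0.46 in Sphere against Monolayer and 0.47 in iCSC against Sphere. With chromosome medians removed, the KLF13 values were 0.85 and -1.10. A second probe set, at 7.42 and 7.12, 7.91 and 7.75, and 7.09 and 7.33 in Monolayer, Sphere and iCSC, was called in the same 2 comparisons, and the other 2 were under the limit.

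KLF12, a repressor that acts through CtBP and was first described on the promoter of TFAP2A, rose in both spheroid cultures. It read 7.77 and 7.85 in Monolayer, 10.28 and 10.02 in Sphere, and 10.18 and 9.74 in iCSC. The spheroid cultures overlapped each other and stood clear of Monolayer. The gain was 2.34 ± 0.18 (log2, SE) in Sphere (limma, adjusted p = 6.73e-05) and 2.15 ± 0.18 in iCSC (adjusted p = 0.000129), or 1.51 and 1.27 when the passing probe sets of the gene were averaged. Of the 4 passing KLF12 probe sets, 3 were called higher in Sphere and 2 in iCSC, against 28.1% and 27.7% of all tested probe sets. One of those called in both lay under the limit on both Monolayer arrays, at 4.81 and 4.48, so that the filter set its direction. The other 4 gave no value above the limit. iCSC differed from Sphere by -0.19 (95% interval -0.61 to 0.23).

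KLF5 and KLF12 are neighbours: no other protein-coding gene lies between them on chromosome 13 in the RefSeq order. They changed in opposite directions between Monolayer and each spheroid culture. Of the next genes on the KLF5 side, the mitotic regulator BORA changed by -1.27 ± 0.17 in Sphere (limma, adjusted p = 0.000995), while PIBF1 and the exosome nuclease DIS3 did not pass (adjusted p = 0.162 and 0.269). On the KLF12 side, the Rab GTPase activator TBC1D4 changed by -2.54 ± 0.20 (adjusted p = 8.31e-05), COMMD6 by 0.74 ± 0.12 (0.00208) and the ubiquitin hydrolase UCHL3 by -0.63 ± 0.13 (0.00547). In Sphere against Monolayer, this row of genes thus held calls of both signs.

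**Figure D3:**
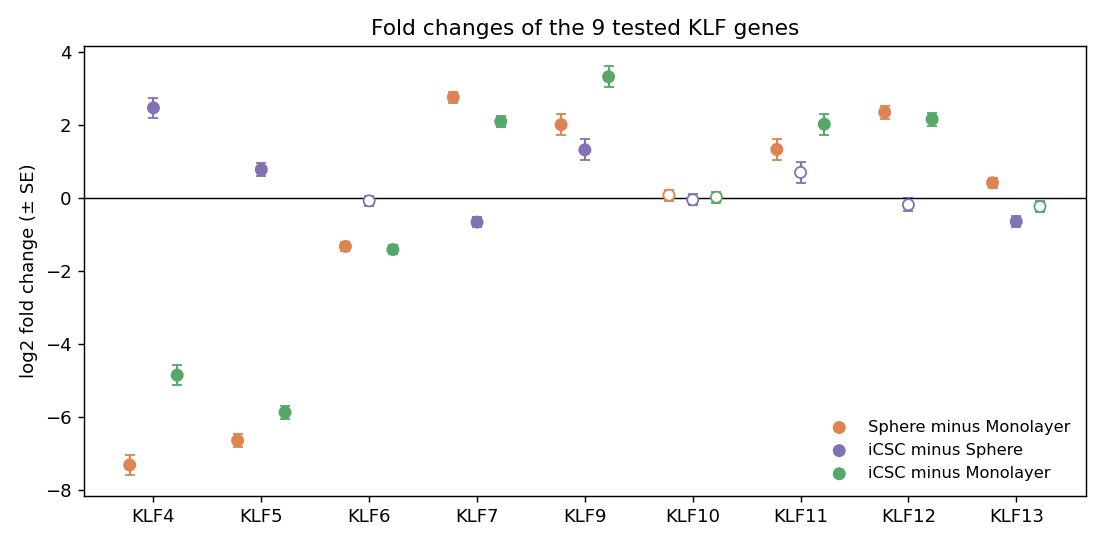
Log2 fold change (vertical axis, ± SE from limma) of the 9 tested KLF genes in the 3 comparisons; filled points passed at an adjusted p under 0.05 and open points did not. KLF4 and KLF5 have the lowest values, -7.32 and -6.65 in Sphere against Monolayer, KLF7 has the highest gain with both cultures measured, 2.75 in Sphere against Monolayer, and the 3 open points of KLF10 lie at 0.07, -0.06 and 0.01; folds of KLF4, KLF5 and KLF9 that start or end under the limit, such as 3.31 for KLF9 in iCSC, overstate what was measured.

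The other KLF genes were also looked up. KLF1, KLF8, KLF14 and KLF17 were under the limit on all 6 arrays, with a highest value of 2.92. KLF3, which like KLF12 recruits CtBP, read 8.52 and 8.75 in Monolayer, 9.69 and 9.43 in Sphere and 9.43 and 9.22 in iCSC, and was called higher in Sphere (limma, 0.93 ± 0.15, adjusted p = 0.00231) and in iCSC (0.69 ± 0.15, adjusted p = 0.00913). KLF16, of the SIN3A-recruiting branch, was called 0.47 ± 0.16 higher in Sphere than in Monolayer (limma, adjusted p = 0.0392) and lower in iCSC than in Sphere (0.0466). KLF15, a factor of glucocorticoid and fasting responses, was lower in iCSC than in Monolayer by a log2 change of -1.07 ± 0.25 (adjusted p = 0.0109).

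The genes nearest to a member in their 6 array values, after each gene's own mean was subtracted, were listed for KLF4, KLF5 and KLF6. For KLF4 they were TNNT1 and TNNC1, troponin subunits of slow muscle fibres, the scavenger receptor COLEC12, the membrane protein TMEM200A and NRP1, a receptor for semaphorins and VEGF, at root mean square distances of 0.10 to 0.35 (log2), where the median over all tested genes was 3.07. TNNT1, the nearest, read 11.33 and 11.16 in Monolayer, 4.11 and 4.07 in Sphere and 6.70 and 5.95 in iCSC, the same order of cultures as KLF4. For KLF5 they were PID1, the Notch coactivator MAMLD1, the heparan sulfate enzyme HS3ST3B1, SYTL2 and PLAU, the urokinase protease (0.30 to 0.35, median 2.99). For KLF6 they were IFITM3, an interferon-induced membrane protein, ATXN7, FASTKD3, ACOT8 and ANKRD34A (0.07 to 0.11, median 0.75). With 2 arrays in each of 3 cultures, many genes share such a pattern, and the lists describe likeness in these 6 arrays only.

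**Figure D4:**
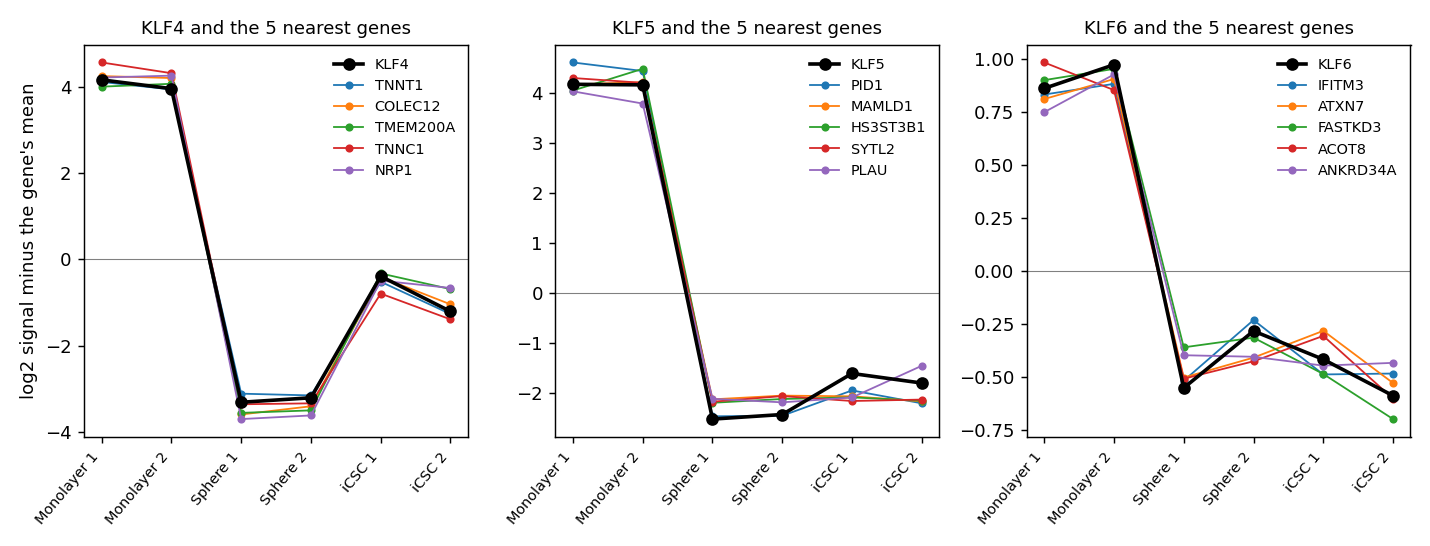
Log2 signal minus each gene's mean over the 6 arrays (vertical axis) for KLF4, KLF5 and KLF6 (black) and the 5 tested genes nearest to each, by array. The KLF4 set stands highest in Monolayer, lowest in Sphere and between them in iCSC, the KLF5 set is low in both spheroid cultures, and the KLF6 set is about as low in Sphere as in iCSC, as KLF6 itself is, at 9.51 and 9.43 on average.

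Genes upstream of KLF2 and KLF4 in the MEK5, ERK5 and MEF2 route were followed next. In this and the following lists, counts stand against 30.0% of all genes higher and 29.1% lower in Sphere against Monolayer, 19.3% and 19.2% in iCSC against Sphere, and 29.0% and 26.6% in iCSC against Monolayer, with all-gene medians of 0.01, 0.01 and 0.02 (log2). Of 9 tested, 1 was higher and 3 were lower in Sphere than in Monolayer, 4 were higher and 2 lower in iCSC than in Sphere, and 3 were higher and 3 lower in iCSC than in Monolayer, with medians of -0.31, 0.06 and -0.38. The ERK5 kinase gene MAPK7 read 6.72 and 6.46 in Monolayer, 6.52 and 6.55 in Sphere and 7.34 and 7.71 in iCSC, and iCSC was above Sphere by 0.99 ± 0.19 (limma, adjusted p = 0.00820). MEF2C, a MEF2 factor of muscle and neurons, was under the limit on both Monolayer and both Sphere arrays. It read 5.64 and 5.11 in iCSC, above Monolayer and above Sphere by a factor of at least 1.30 (limma, adjusted p = 9.80e-05 and 0.000139). MEF2C entered the test through iCSC alone, so the filter set the direction of both differences. MEF2A was lower in Sphere than in Monolayer (-0.65 ± 0.14, adjusted p = 0.00822) and rose by 0.68 ± 0.14 from Sphere to iCSC (adjusted p = 0.0115).

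Many KLF genes answer serum, so serum-induced immediate early genes were set beside them. Of 14 tested, 4 were higher and 4 lower in Sphere than in Monolayer, near the 30.0% and 29.1% of all genes, 3 were higher and 5 lower in iCSC than in Monolayer, and 2 were higher and 5 lower in iCSC than in Sphere, with medians of 0.0016, -0.31 and -0.26 (log2). The matrix signalling gene CCN1 fell with KLF4 and KLF5, from 12.56 and 12.997 in Monolayer to 4.30 and 6.08 in Sphere and 5.38 and 4.46 in iCSC (limma, adjusted p = 7.92e-05 and 8.88e-05). FOSL1, an AP-1 subunit, fell at least 24.7-fold in both spheroid cultures, a direction set by the filter, which it passed through Monolayer alone. EGR1, a first responder to serum, was higher instead, by 1.52 ± 0.37 in iCSC (adjusted p = 0.0127). JUNB rose by 2.18 ± 0.18 in Sphere (adjusted p = 0.000106) and was back at 6.60 and 6.62 in iCSC, against 7.04 and 6.65 in Monolayer.

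TGF-beta induces KLF10 and KLF11, and genes of its pathway were set beside them. Of 12 tested, 1 was higher and 7 were lower in Sphere, and 1 was higher and 6 were lower in iCSC, each against Monolayer, where 30.0% and 29.1% of all genes were higher and lower in Sphere and 29.0% and 26.6% in iCSC. The medians were -0.86 and -0.61 (log2), or -0.52 and -0.47 with values under 5 set to 5, against 0.01 and 0.02 over all genes. Between iCSC and Sphere 3 were higher and 1 was lower, with a median of 0.30. The receptor TGFBR2 went from 9.79 and 9.71 in Monolayer to 3.82 and 3.53 in Sphere, at least 26.9-fold lower (limma, adjusted p = 4.07e-06), and to 6.30 and 5.70 in iCSC. The ligand TGFB1 fell by 2.61 on the log2 scale in Sphere (SE 0.48, adjusted p = 0.00378) and at least 14.0-fold in iCSC, and SMAD6, an inhibitory SMAD, changed by -3.16 ± 0.21 in Sphere. KLF10 and KLF11 did not fall beside them. The steroid-hormone genes around KLF9 moved both ways, with 3 of 7 tested higher and 3 lower in Sphere, 2 higher and 3 lower in iCSC against Monolayer, and 0 higher and 3 lower in iCSC against Sphere, with medians of 0.36, -0.59 and -0.49. NR3C1, the glucocorticoid receptor, changed by -1.55 ± 0.13 in Sphere and -2.14 ± 0.13 in iCSC (limma, adjusted p = 9.97e-05 and 3.18e-05). Its target TSC22D3 was at least 6.01-fold higher in Sphere and 5.27-fold in iCSC (adjusted p = 0.000177 and 0.000305). The filter set the direction of TSC22D3, which entered through the spheroid cultures alone. SGK1, a kinase gene that glucocorticoids also induce, went the other way, from 11.56 and 11.47 in Monolayer to 7.68 and 7.999 in Sphere and 7.53 and 7.99 in iCSC (limma, adjusted p = 1.24e-05 and 1.52e-05). THRB, a thyroid hormone receptor, was at least 2.62-fold lower in both, and THRA, the other one, was higher in both (limma, adjusted p = 0.00827 and 0.00206). THRB entered through Monolayer alone, so the filter set its direction.

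Genes known as KLF targets in other cells were counted the same way. Of 14 tested targets of KLF5, KLF6 and KLF7, 6 were higher and 6 lower in Sphere (30.0% and 29.1% of all genes), 5 higher and 6 lower in iCSC (29.0% and 26.6%), each against Monolayer, and 1 higher and 5 lower in iCSC against Sphere, with medians of 0.06, -0.06 and -0.07 (log2). PDGFA, a growth factor activated by KLF5, went from 8.03 and 7.87 in Monolayer to 2.64 and 2.75 in Sphere and 2.74 and 2.63 in iCSC. It was at least 7.73-fold lower (limma, adjusted p = 1.89e-06 in Sphere and 2.73e-06 in iCSC). Having entered through Monolayer alone, PDGFA had its direction set by the filter. GAP43, a growth cone protein tied to KLF7, read 2.14 and 2.24 in Monolayer, 10.01 and 10.38 in Sphere and 8.21 and 8.59 in iCSC. GAP43 entered through the spheroid cultures alone, which set its direction against Monolayer, and a link to the KLF7 levels was not tested. L1CAM, an adhesion molecule also tied to KLF7, was higher in Sphere (adjusted p = 0.00105) but not in iCSC (0.481). CDKN1B, the p27 inhibitor, was higher in both. Of 15 target genes of KLF2 and KLF4, 4 were tested: 2 were higher and 1 lower in Sphere, and 2 higher and 1 lower in iCSC, each against Monolayer, and 1 higher and 1 lower in iCSC against Sphere, with medians of 0.88, 1.87 and -0.21. VCAM1, a vascular adhesion molecule, went from 7.60 and 7.04 in Monolayer to 11.33 and 11.31 in Sphere (limma, adjusted p = 0.000117). SOX2, a pluripotency factor that acts with KLF4 in reprogramming, was under the limit in Monolayer and Sphere and read 9.25 and 8.47 in iCSC. It was at least 14.5-fold higher there than in either (limma, adjusted p = 5.61e-06 and 9.22e-06), a direction set by the filter. NANOG, another pluripotency factor, was called lower than in Monolayer in Sphere (-0.82 ± 0.22, adjusted p = 0.0164) and in iCSC (-0.66 ± 0.22, adjusted p = 0.0392). CDKN1A changed by 1.81 ± 0.30 in Sphere against Monolayer (adjusted p = 0.00247) and by -1.49 ± 0.30 in iCSC against Sphere (adjusted p = 0.00965).

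KLF2 and KLF4 mark endothelium and KLF4 and KLF5 mark epithelium, so markers of both were read on the same arrays. Of 8 epithelial markers, KRT8 and KRT18, keratins that many tumour lines make, were measured and the other 6, EPCAM and CDH1 among them, were under the limit on all arrays with a highest value of 3.89. The log2 of the summed epithelial signal was 12.9 to 13.1 in Monolayer, 8.39 to 8.63 in Sphere and 8.25 to 8.52 in iCSC. Of 8 endothelial markers, the receptor TEK and PECAM1 were measured and the other 6, CDH5 and VWF among them, were under the limit, and the log2 sum was 8.04 to 8.15, 6.62 to 6.77 and 6.26 to 6.41. TEK fell at least 6.83-fold in both spheroid cultures and PECAM1 rose at least 1.504-fold in Sphere. The filter set both directions, since TEK entered through Monolayer alone and PECAM1 through Sphere alone. Of 8 tested genes of the mesenchymal neuroblastoma state, 7 were lower and 1 was higher in Sphere against Monolayer. In iCSC 2 were higher and 4 lower than in Monolayer, and 5 higher and 1 lower than in Sphere. The log2 sums over this list were 15.57 to 15.61 in Monolayer, 14.18 to 14.50 in Sphere and 15.07 to 15.15 in iCSC. Of 10 tested neuroblast markers, 9 were higher and 0 lower in Sphere against Monolayer. In iCSC 7 were higher and 1 lower than in Monolayer, and 0 higher and 8 lower than in Sphere. Tested markers under the limit on both Monolayer arrays entered through the spheroid cultures alone, which set their direction against Monolayer. The log2 sums over the neuroblast list were 9.10 to 9.59 in Monolayer, 15.49 to 15.73 in Sphere and 13.69 to 13.89 in iCSC. Of 7 fibroblast markers, all tested, 4 were higher and 2 lower in either spheroid culture against Monolayer. Among them, DCN, a matrix proteoglycan, was at least 49.8-fold higher in Sphere and COL1A2, a collagen chain, rose at least 183-fold from Monolayer to iCSC. DCN entered the test through the spheroid cultures alone and COL1A2 through iCSC alone, so the filter set both directions. Against Monolayer, PDGFRA was lower in Sphere (limma, -0.95 ± 0.32, adjusted p = 0.0420) and COL3A1 in iCSC (-2.69 ± 0.27, adjusted p = 0.000303). From Sphere to iCSC, 2 of the 7 were higher and 4 lower. The log2 sums over the list were 14.43 to 14.45 in Monolayer, 14.52 to 14.55 in Sphere and 13.57 to 13.86 in iCSC. The leukocyte phosphatase gene PTPRC was at least 107-fold lower in iCSC than in Monolayer, while the other 5 leukocyte markers on the array were under the limit throughout, and the log2 sum was 11.65 to 11.85 in Monolayer, 12.43 to 12.53 in Sphere and 4.88 to 4.89 in iCSC. Of 3 Schwann cell markers on the array, ERBB3 was tested and higher in iCSC, while S100B and SOX10 were under the limit. The part of any of these markers in the KLF values was not tested.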

How the data were processed

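The 6 arrays, with 2 for each of 3 cultures, were taken as the authors deposited them: log2 signals for each probe set. The notes on processing by the submitters name GCRMA and Partek. GCRMA corrects background by base composition and normalizes across arrays, and it narrows unexpressed probe sets to a low band, so folds that start there overstate. Settings: not given in the sources used here. Groups came from sample titles. Of 54675 probe sets, 41091 had 1 gene symbol in the platform annotation. By Entrez identifier, 41043 symbols were matched to the current RefSeq symbol (GRCh38.p14), whether or not it differed. A probe set entered at log2 5 or more on at least 2 arrays (18059 did), and the one with the highest mean stood for its gene (10459 genes). The model, in limma 3.58.1 (R 4.3.3), had a mean per culture, moderated variances with a trend, 3 residual degrees of freedom, two-sided tests, Benjamini-Hochberg adjustment over all genes. Probe sets were fitted the same way over all 18059. Where all arrays of a culture were under 5, folds are lower bounds with values under 5 set to 5, written "at least", and the p-value beside them comes from the values as deposited. The model was tested on simulated data. The members and lists were chosen with earlier results of these data known. Named were the 10 members, up to 4 called genes per list and comparison, the 5 genes nearest in pattern to 3 members, and reference genes. Of 5 tested reference genes, 2 were called lower and 0 higher in each spheroid culture against Monolayer (29.1% and 26.6% of all genes lower). HPRT1 changed by -0.42 ± 0.10 in Sphere (limma, adjusted p = 0.0117) and -0.81 ± 0.10 in iCSC (adjusted p = 0.000813). ACTB changed by -0.25 ± 0.08 (adjusted p = 0.0306) and -0.37 ± 0.08 (adjusted p = 0.00742). The chromosome neighbours and every other gene of a list that the text names were chosen after their values were seen. Figures used matplotlib 3.10.9. Alternatives, 18 in number, are described at the end. Promoter stretches are RefSeq's.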

Additional observations from a re-analysis of the deposited data

How the results depend on the processing

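Against Monolayer, 3 members were lower in Sphere and in iCSC whichever of the 6 arrays was left out, and the calls of KLF4, KLF5, KLF6, KLF7, KLF9 and KLF12 against Monolayer held in each of the 18 alternatives in which the gene was tested. The 5 members higher in Sphere became 3 without variance moderation, 3 without x_at and s_at probe sets (which takes KLF4, KLF9, KLF10 and KLF13 out of the test) and 3 to 5 when 1 array was left out, with 3 without Monolayer replicate 2. The filter at log2 5 set the direction of KLF5 and KLF9 against Monolayer, and most alternatives kept it. In those, the held calls of KLF5 and KLF9 add no support. With no filter KLF2 entered and was called lower in Sphere and iCSC (limma, adjusted p = 2.58e-05 and 3.65e-05), all of its values being under the limit. For iCSC against Sphere, the 3 higher members became 1 with values under 5 set to 5, 0 without x_at and s_at probe sets (limma), 1 with chromosome medians removed (an alternative chosen after seeing the data) and 1 to 3 when 1 array was left out, and the 2 lower members became 0 without variance moderation, 1 without x_at and s_at probe sets and 0 to 2 when 1 array was left out. The lowest of these came without Sphere replicate 1. Over all genes, the 4022 calls of that comparison became 2281 without variance moderation and 2583 to 3883 when 1 array was left out. With the replicate block the members called were 5 higher and 3 lower, 4 and 2, and 4 and 3 in the 3 comparisons, KLF11 being added for iCSC against Sphere (adjusted p = 0.0231, range 0.0231 to 0.443). The replicate numbers were not taken as pairs: over 10459 genes the deviations of same-numbered arrays correlated at 0.02, -0.05 and 0.17 between cultures. KLF12 was called lower in iCSC than in Sphere only with chromosome medians removed (adjusted p = 0.0451, range 0.0451 to 0.912). Signal over background limits KLF2 in all cultures, KLF4 in Sphere, KLF5 in both spheroid cultures and KLF9 in Monolayer.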

Other observations

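Partners of KLF proteins were counted as well. Of 11 tested corepressors and coactivators, 2 were higher and 1 was lower in Sphere than in Monolayer, where 59.0% of all genes were called. In iCSC 4 were higher and 2 lower than in Monolayer (55.6% of all genes called), and 3 higher and 1 lower than in Sphere (38.5%), with medians of 0.18, 0.18 and 0.01 (log2). SIN3A, the corepressor that KLF9, KLF10, KLF11 and KLF13 bind, read 8.74 and 8.63 in Monolayer, 9.15 and 8.86 in Sphere and 9.96 and 9.59 in iCSC, and was 1.09 ± 0.17 higher in iCSC than in Monolayer (limma, adjusted p = 0.00210). CTBP1, the partner of KLF3 and KLF12, was 0.52 ± 0.09 higher in Sphere and 0.42 ± 0.09 higher in iCSC. KAT2B, an acetyltransferase that works with activating members, read 6.36 and 6.25 in Monolayer, 2.86 and 2.88 in Sphere and 4.76 and 4.58 in iCSC. It was at least 2.48-fold lower in both spheroid cultures (limma, adjusted p = 1.03e-05 and 0.000372). The filter set this direction, since KAT2B entered through Monolayer alone.

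The SP factors, which share the zinc fingers of the KLF family, were mostly not called. SP1, SP2 and SP4 passed in none of the 3 comparisons (limma, smallest adjusted p = 0.244), and SP3 was higher in Sphere (0.46 ± 0.11, adjusted p = 0.0126) and in iCSC (0.81 ± 0.11, adjusted p = 0.00133) than in Monolayer. SP5, SP6, SP7 and SP8 were under the limit on all arrays. Of 9 ubiquitin ligases and deubiquitinases of KLF proteins, 3 were higher and 2 lower in Sphere, and 1 higher and 2 lower in iCSC, each against Monolayer, and 0 higher and 1 lower in iCSC against Sphere. WWP1, the ligase of KLF2 and KLF5, passed in none (smallest adjusted p = 0.0697). The RNA beside KLF9, KLF9-DT, read at most 2.06 on any array, under the limit, while KLF9 itself rose.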
